A study of Mus musculus with 30 samples.

Results

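The 9 genes described here are adipokines and other genes of fat cells, namely *Lep*, *Adipoq*, *Cfd*, *Retn*, *Hp*, *Rbp4*, *Fabp4*, *Car3* and *Adrb3*. They were picked by symbol from tables that list 54838 genes in kidney and 55487 in gastrocnemius, and all 9 were in both tables. They were picked with their behaviour across the diet groups known, so their levels and fold changes are given as a description. They were part of the edgeR fits over all genes, and which of them were called there is given for completeness, without p-values and not as evidence. RNA-seq libraries of kidney and gastrocnemius came from 3 groups of wild-type male C57BL/6J mice, with 5 libraries for each group in each tissue and 30 altogether. The mice of all 3 groups were moved to thermoneutral cabinets (30 to 32 °C) at 6 weeks of age. From Week 7 to Week 24 the CD group received a chow diet with water by gavage, the WD group a western diet with water by gavage, and the WD + CHP group the western diet with cyclo(His-Pro), a cyclic dipeptide, at 20 mg/kg 3 times per week. All were euthanised after a fast of 3 h. RNA was sequenced for each mouse according to the study's methods, so errors below measure the spread between the libraries of different mice. Whether a kidney and a muscle shared a mouse is not stated.

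The sample labels name liver as the frozen starting tissue of all 30 libraries, so the tissue was checked by marker genes. Of 10 tubule markers, 10 passed the filter on low counts in kidney and 0 in gastrocnemius. Of 10 fast muscle fibre markers, 10 passed in gastrocnemius and 4 in kidney. The gene totals ran from 37189192 to 38211422 reads in kidney and from 50319024 to 53282969 reads in gastrocnemius. Levels are in CPM, the count of a gene relative to the library size scaled by TMM. *Alb*, the albumin gene of hepatocytes, was high in a few libraries. It reached 424 CPM in kidney WD replicate 5 and 81.4 CPM in kidney CD replicate 1, against 8.98 to 27.8 CPM in the other 13 kidney libraries. In gastrocnemius it reached 48.6 CPM in WD replicate 3, 47.9 CPM in CD replicate 1 and 10.4 CPM in WD replicate 2, against 0.267 to 3.45 CPM in the other 12 libraries.

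Adipocytes store triglyceride and release hormones and other proteins, the adipokines, into the blood. *Lep* encodes leptin, which reports the size of the fat stores to the brain and usually follows adipocyte size. *Adipoq* encodes adiponectin, which acts on muscle and liver through its own receptors, and *Cfd* encodes adipsin, or complement factor D, the protease that starts the amplification of the alternative complement pathway. *Retn* encodes resistin, *Rbp4* the retinol carrier of plasma and *Hp* haptoglobin, which binds free haemoglobin. *Fabp4* encodes the fatty acid binding protein of adipocytes, *Car3* a carbonic anhydrase and *Adrb3* the adrenergic receptor that drives lipolysis. Only some of these are particular to fat. Hepatocytes make *Hp* and *Rbp4*, slow muscle fibres make *Car3*, and capillary endothelium makes *Fabp4*. Muscle and kidney carry small fat depots around and between their own cells. In bulk tissue, fewer adipocytes and less RNA per adipocyte cannot be told apart.

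The promoter sequences of *Lep*, *Adipoq* and *Cfd* are shown because these 3 genes moved differently across the groups. The sequences are the 250 bases before the start site from RefSeq (GRCm38.p6), 5′ to 3′ on the plus strand, and the promoter table held 5 of the 9 members. They cover chr6:29059971-29060220 for *Lep*, chr16:23146286-23146535 for *Adipoq* and chr10:79890603-79890852 for *Cfd*. Capitals mark the motifs found there.
Lep: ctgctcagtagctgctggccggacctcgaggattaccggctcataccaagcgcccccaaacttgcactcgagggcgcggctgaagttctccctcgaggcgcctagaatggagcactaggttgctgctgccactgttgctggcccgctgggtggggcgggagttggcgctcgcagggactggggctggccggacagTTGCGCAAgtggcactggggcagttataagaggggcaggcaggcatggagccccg
Adipoq: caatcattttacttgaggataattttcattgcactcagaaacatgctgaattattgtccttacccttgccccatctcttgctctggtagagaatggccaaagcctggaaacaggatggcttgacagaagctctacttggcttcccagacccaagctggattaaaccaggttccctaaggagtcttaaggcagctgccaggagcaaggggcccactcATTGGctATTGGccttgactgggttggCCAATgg
Cfd: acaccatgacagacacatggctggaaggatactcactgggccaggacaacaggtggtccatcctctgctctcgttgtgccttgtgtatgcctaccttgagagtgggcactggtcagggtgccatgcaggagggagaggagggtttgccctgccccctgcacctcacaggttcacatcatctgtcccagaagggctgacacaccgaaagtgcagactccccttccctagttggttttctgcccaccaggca
Windows of 300 bases, with 50 bases after the start, were searched on both strands for 5 motifs, none of which contains another. TTGCGCAA is a palindromic motif of C/EBP factors and CCAAT is the CCAAT box. TATAAA is the TATA box, while CACGTG is an E-box motif and the letters AGGTCA are the core motif of nuclear receptors. The *Lep* window held TTGCGCAA at -55 from the start site, a motif found in 60 of 32851 promoters, or 0.183%. The *Adipoq* window held CCAAT on the minus strand at -34 and -27 and on the plus strand at -7, and 37.4% of all promoters hold that motif. The *Cfd* window held none of the 5 motifs, of which the TATA box occurs in 13.6%, the E-box motif in 7.15% and the nuclear receptor motif in 16.3% of promoters. These are matches of letters only.

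All 9 members passed the filter on low counts in gastrocnemius, at levels that differed widely. Per kilobase of exon, *Car3* was highest in CD, at 394 ± 68.9 CPM per kb (SD, n = 5). *Cfd* followed at 40.6 ± 13.7 and *Fabp4* at 19.9 ± 3.25 CPM per kb. The exon length used for *Fabp4*, 4489 bases, equals its whole annotated span, which lowers its level per kb. In CPM, *Fabp4* (66.9 to 103) lay above *Cfd* (26.3 to 53.0) in CD, so their order depends on this length. *Adipoq* at 5.71 ± 1.61 and *Hp* at 4.90 ± 1.68 CPM per kb differed by less than their SD, as did *Retn* at 1.32 ± 0.329 and *Rbp4* at 1.09 ± 0.5004 CPM per kb. *Lep* at 0.413 ± 0.417 and *Adrb3* at 0.277 ± 0.0817 CPM per kb were the lowest, and they too differed by less than the SD of *Lep*. The order changed in WD, where *Hp* reached 22.7 ± 4.70 CPM per kb and *Cfd* stood at 13.4 ± 3.97 CPM per kb. *Lep* in WD, at 6.46 ± 0.679 CPM per kb, lay above *Rbp4* at 2.47 ± 0.579 and *Retn* at 1.44 ± 0.585 CPM per kb.

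**Figure D1:**
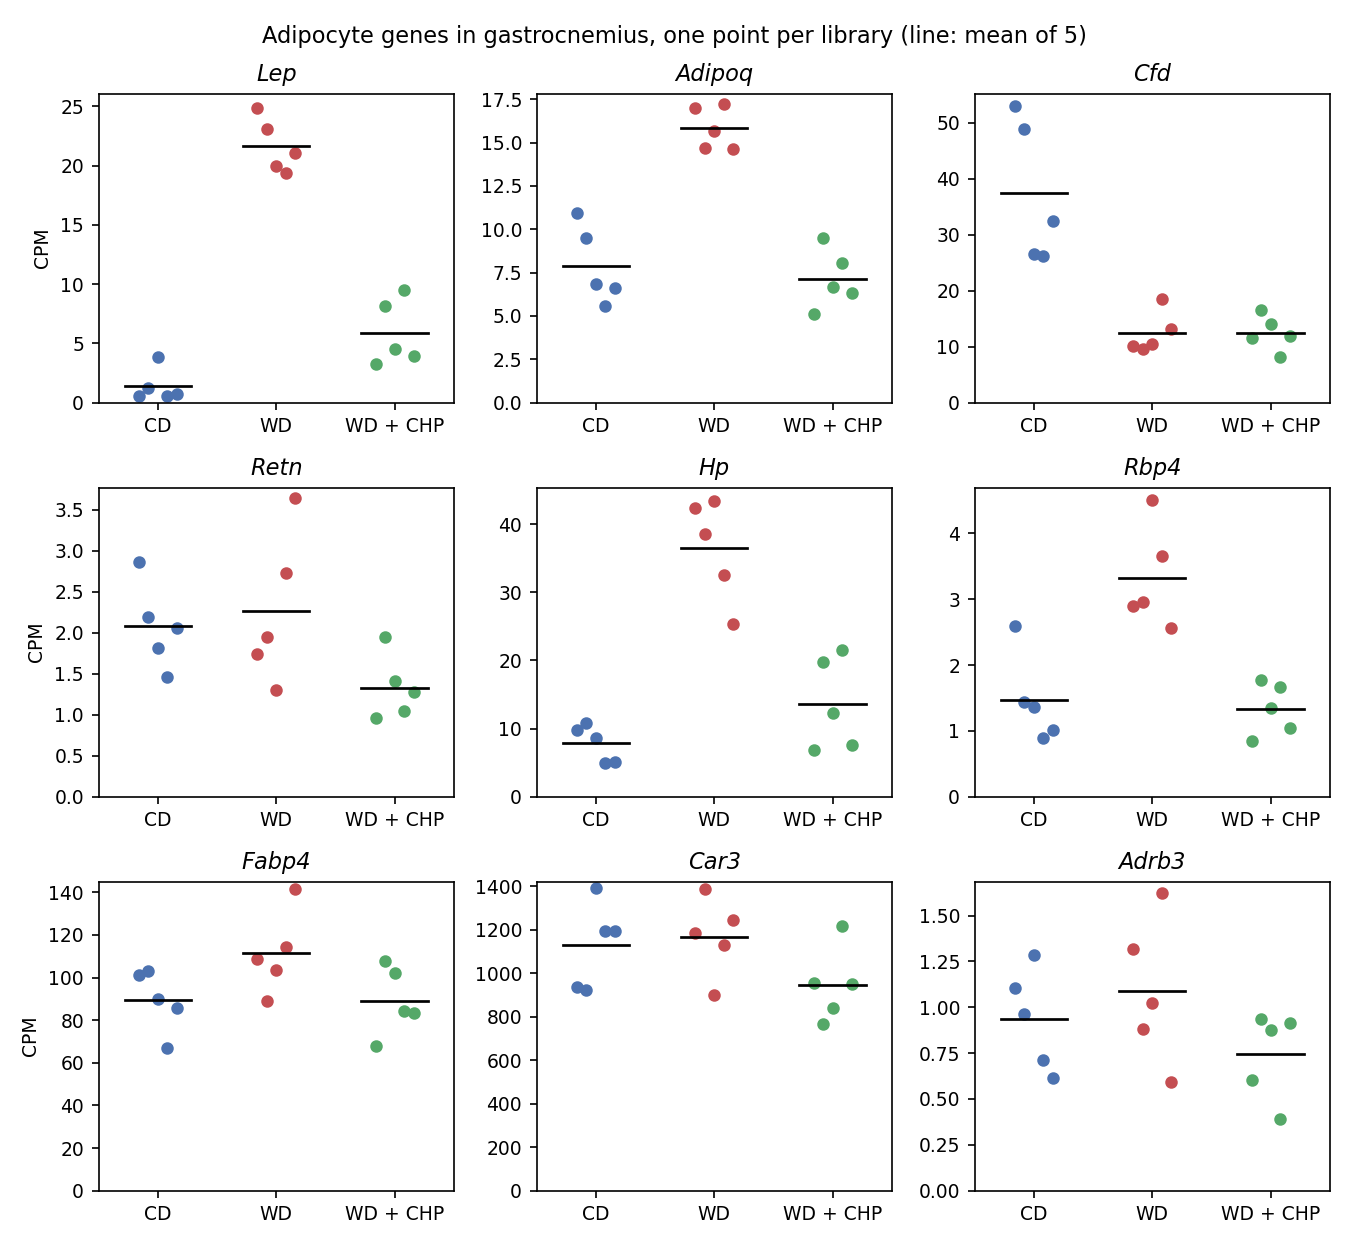
Levels of the 9 genes in gastrocnemius in CPM on a linear axis from 0, with one point per library and a line at the mean of 5. Lep, Adipoq and Hp in WD lie above every CD and every WD + CHP library, and Cfd in CD lies above every library of the other groups.

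In gastrocnemius, WD vs. CD asked what the western diet did. *Lep*, *Adipoq*, *Hp* and *Rbp4* were higher in WD and *Cfd* was lower, and the other 4 members were not called. At an adjusted p under 0.05 over all genes, 8.63% of the 15419 genes tested were called, 4.67% higher and 3.96% lower. The groups did not overlap for 3 members that were higher and 1 that was lower, where 4.09% and 3.76% of all genes did so, 7.84% in all. Nothing is read from these counts, since the members were picked with this contrast known. In gastrocnemius, WD + CHP vs. WD asked what CHP added on the same diet. *Lep*, *Adipoq*, *Hp* and *Rbp4* were lower in WD + CHP and called, against 0.409% of all genes called and 0.344% called lower. For these 4 members the groups did not overlap, as for 2.83% of all genes, 1.65% lower. Nothing is read from these counts either. Both comparisons share the WD libraries. The median log2 fold change of the 9 members was 0.32 in WD vs. CD and -0.77 in WD + CHP vs. WD, where the medians of all genes were 0.0013 and -0.013.

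*Lep* (ENSMUSG00000059201, chr6:29060220-29073877, plus strand) had the widest range of the members on the log2 scale, though not in CPM. Its level in CD was 0.561, 1.25, 3.84, 0.570 and 0.711 CPM in replicates 1 to 5. In WD it was 24.9, 23.1, 19.99, 19.4 and 21.1 CPM. In WD + CHP it was 3.24, 8.12, 4.52, 9.51 and 3.93 CPM. Every WD library lay above every library of the other groups, while CD replicate 3 overlapped the WD + CHP range. The log2 fold change was 3.96 (SE 0.43) in WD vs. CD and -1.89 (SE 0.37) in WD + CHP vs. WD. Between WD + CHP and CD a difference of 2.08 (SE 0.43) remained. CD replicate 3 held 197 *Lep* reads against 28 to 66 in the other 4 CD libraries, and without it the log2 fold change in WD vs. CD was 4.80.

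*Adipoq* (ENSMUSG00000022878, chr16:23146536-23158028, plus strand) was also highest in WD, over a narrower range. Its level in CD was 10.9, 9.50, 6.82, 5.598 and 6.63 CPM. In WD it was 17.0, 14.7, 15.6, 17.2 and 14.6 CPM. In WD + CHP it was 5.13, 9.52, 6.66, 8.04 and 6.30 CPM. The WD libraries lay above all others, and the CD and WD + CHP libraries overlapped. On the log2 scale the fold change was 1.00 (SE 0.17) in WD vs. CD, -1.15 (SE 0.17) in WD + CHP vs. WD and -0.15 (SE 0.17) in WD + CHP vs. CD.

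*Cfd* (ENSMUSG00000061780, chr10:79890853-79892655, plus strand) was lower on the diet and stayed low in WD + CHP. Its level in CD was 53.0, 48.9, 26.5, 26.3 and 32.5 CPM. In WD it was 10.1, 9.63, 10.5, 18.4 and 13.2 CPM. In WD + CHP it was 11.5, 16.6, 14.1, 8.24 and 11.9 CPM. The CD libraries lay above all others, and the WD and WD + CHP libraries overlapped. Of all genes, 8.75% did not overlap between WD + CHP and CD. The log2 fold change was -1.59 (SE 0.23) in WD vs. CD, 0.0086 (SE 0.23) in WD + CHP vs. WD and -1.59 (SE 0.23) in WD + CHP vs. CD. The estimate for CHP ran from -0.12 to 0.20 when 1 library at a time was left out, so its sign was not fixed.

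*Lep* and *Cfd* thus moved in opposite directions in WD. Counted within each library, there were 1.06 to 14.5 *Lep* reads per 100 *Cfd* reads in CD. In WD there were 105 to 246, and in WD + CHP 28.1 to 115. The CD libraries did not overlap with either other group, and WD + CHP replicate 4, at 115, fell within the WD range. *Cfd* and *Adipoq*, which are both held to mark mature adipocytes, also parted. There were 3.89 to 5.15 *Cfd* reads per *Adipoq* read in CD, 0.597 to 1.07 in WD and 1.02 to 2.24 in WD + CHP. Here WD + CHP lay between the groups, and only WD + CHP replicate 4 was within the WD range.

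**Figure D2:**
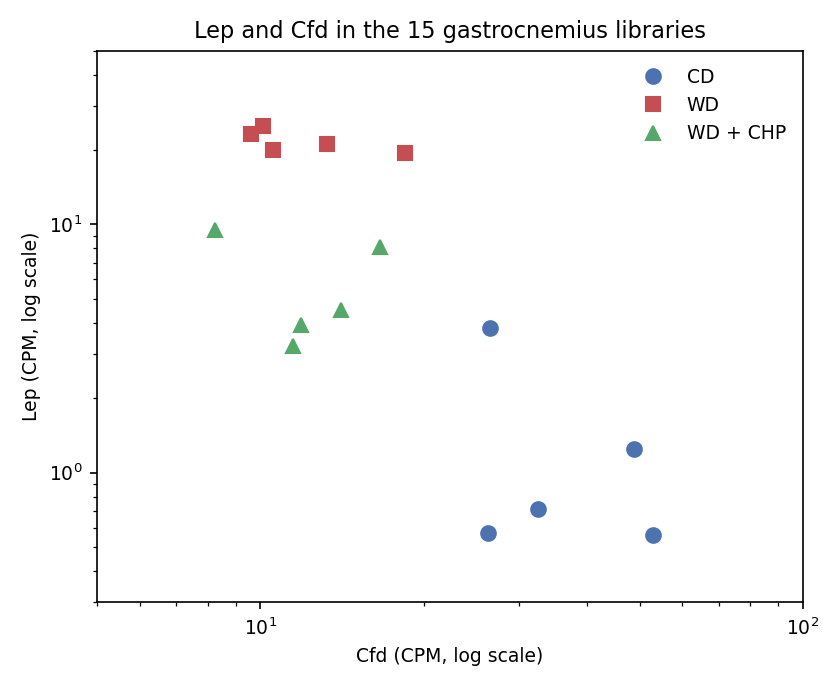
Lep against Cfd in the 15 gastrocnemius libraries, in CPM on log axes, with one symbol per library. CD libraries sit at high Cfd and low Lep, WD libraries at low Cfd and high Lep, and WD + CHP libraries at low Cfd with Lep between 3.24 and 9.51 CPM.

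*Hp* and *Rbp4*, the plasma carriers, were also higher in WD than in CD and lower in WD + CHP than in WD. *Hp* (ENSMUSG00000031722, chr8:109575128-109579172, minus strand) was at 9.81, 10.9, 8.57, 4.97 and 5.15 CPM in CD. In WD it was at 42.3, 38.5, 43.4, 32.6 and 25.3 CPM. In WD + CHP it was at 6.84, 19.7, 12.3, 21.6 and 7.56 CPM. All WD libraries lay above the rest, and the CD and WD + CHP libraries overlapped. WD + CHP replicates 2 and 4, the highest for *Hp*, were also the highest for *Lep*. The log2 fold change was 2.21 (SE 0.31) in WD vs. CD and -1.42 (SE 0.30) in WD + CHP vs. WD.

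*Rbp4* (ENSMUSG00000024990, chr19:38116629-38125281, minus strand) was a low transcript. Its level in CD was 2.59, 1.44, 1.36, 0.896 and 1.02 CPM. In WD it was 2.90, 2.96, 4.51, 3.66 and 2.56 CPM. In WD + CHP it was 0.838, 1.77, 1.35, 1.67 and 1.05 CPM. CD replicate 1 overlapped the WD range, and the WD and WD + CHP libraries did not overlap. The CD and WD + CHP libraries overlapped. On the log2 scale this was a change of 1.18 (SE 0.26) in WD vs. CD and -1.31 (SE 0.26) in WD + CHP vs. WD.

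Hepatocyte RNA was measured beside these 2 genes. Of 8 hepatocyte markers, 4 passed the filter in gastrocnemius and 0 were called in either comparison. Their summed level was 0.916 to 64.5 CPM in CD, 0.957 to 64.6 CPM in WD and 0.820 to 2.88 CPM in WD + CHP. At an unadjusted p under 0.05 edgeR had 0 of the 4 in WD vs. CD and 3 in WD + CHP vs. WD. Of the 4, 3 had a log2 fold change above 0 in the first (median 0.30) and all 4 one below 0 in the second (median -3.46). None of the 8 was at 0 in all libraries of a group. WD replicate 3 and CD replicate 1, with the most *Alb*, were also the highest of their groups for *Rbp4*. Without these 2 libraries and WD replicate 2, a choice made after the data were seen, the log2 fold change in WD vs. CD was 2.17 for *Hp* and 1.36 for *Rbp4*. The change in WD + CHP vs. WD was -1.30 for *Hp* and -1.18 for *Rbp4*. Neutrophils also store haptoglobin, and of 8 neutrophil markers 0 passed the filter in gastrocnemius, with a summed level of 0.0204 to 0.290 CPM and 1 or 2 of the 8 at 0 in all libraries of a group.

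For 3 of the 4 members the call in WD + CHP vs. WD was lost when most single libraries were dropped, while the fold changes moved little. When each library of the compared groups was dropped in turn, *Lep* was called 4 of 10 times, *Hp* 3 and *Rbp4* 2. *Adipoq* alone passed when WD replicate 1, 2 or 3 was dropped, and likewise for WD + CHP replicate 1, 3 or 5. Without WD replicate 4 *Lep* also passed, without WD + CHP replicate 4 *Lep* and *Hp*, and all 4 passed when WD replicate 5 was dropped, or WD + CHP replicate 2. The log2 fold changes stayed between -2.13 and -1.73 for *Lep*, -1.65 and -1.25 for *Hp*, and -1.43 and -1.17 for *Rbp4*. Without the 3 libraries with the most *Alb*, 0 of the 9 members were called, when 0 of all genes passed edgeR's adjusted threshold and 1492 had an unadjusted p under 0.05. The *Lep* and *Adipoq* fold changes were then -1.89 and -1.19.

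*Retn*, *Fabp4*, *Car3* and *Adrb3* were not called in either comparison of gastrocnemius, and their groups overlapped in both. *Retn* (chr8:3655770-3660110) was at 1.47 to 2.86 CPM in CD, 1.298 to 3.64 CPM in WD and 0.955 to 1.94 CPM in WD + CHP. Its log2 fold change was 0.12 (SE 0.25) and -0.77 (SE 0.26) in WD vs. CD and WD + CHP vs. WD. *Adrb3* (chr8:27225776-27250616) was at 0.615 to 1.29 CPM, 0.593 to 1.62 CPM and 0.392 to 0.934 CPM in the same order of groups, or 20 to 88 reads per library. Its log2 fold change was 0.22 (SE 0.28) and -0.54 (SE 0.28). An antisense gene, Gm45470, overlaps *Adrb3*, and the strand setting of the counts is not given in the sources used here, so reads of the pair cannot be told apart.

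*Fabp4* (chr3:10204088-10208576) was at 66.9 to 103 CPM in CD, 89.2 to 141 CPM in WD and 67.7 to 108 CPM in WD + CHP. WD vs. CD gave a log2 fold change of 0.32 (SE 0.14) and WD + CHP vs. WD one of -0.32 (SE 0.14). Of 8 endothelial markers 8 passed the filter and 1, *Cldn5*, was called lower in WD vs. CD (-0.67, SE 0.19). Their summed level was 298 to 363 CPM in CD, 281 to 325 CPM in WD and 286 to 321 CPM in WD + CHP. The part of endothelial cells in the *Fabp4* level was not tested.

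*Car3* (chr3:14863512-14872523) was at 924 to 1391 CPM in CD, 901 to 1386 CPM in WD and 767 to 1218 CPM in WD + CHP. Its log2 fold change was 0.050 (SE 0.14) in WD vs. CD and -0.30 (SE 0.14) in WD + CHP vs. WD. Of 7 slow muscle fibre markers 7 passed the filter and 0 were called in either comparison. Their summed level was 572 to 1589 CPM in CD, 776 to 2822 CPM in WD and 936 to 1574 CPM in WD + CHP. At an unadjusted p under 0.05 edgeR had 3 of the 7 in WD vs. CD and 0 in WD + CHP vs. WD. All 7 had a log2 fold change above 0 in the first (median 0.55) and below 0 in the second (median -0.30). Of 10 fast fibre markers 2 were called lower in WD vs. CD, *Acta1* (-0.22, SE 0.060) and *Ckm* (-0.26, SE 0.069), and 9 of 10 had a log2 fold change below 0 (median -0.22). For WD + CHP vs. WD edgeR called 0 of the 10, with 1 at an unadjusted p under 0.05 and a median of 0.034. The summed fast fibre level was 243367 to 288900 CPM in CD, 214216 to 246956 CPM in WD and 222325 to 260295 CPM in WD + CHP. The part of fibre type in the *Car3* level was not tested.

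**Figure D3:**
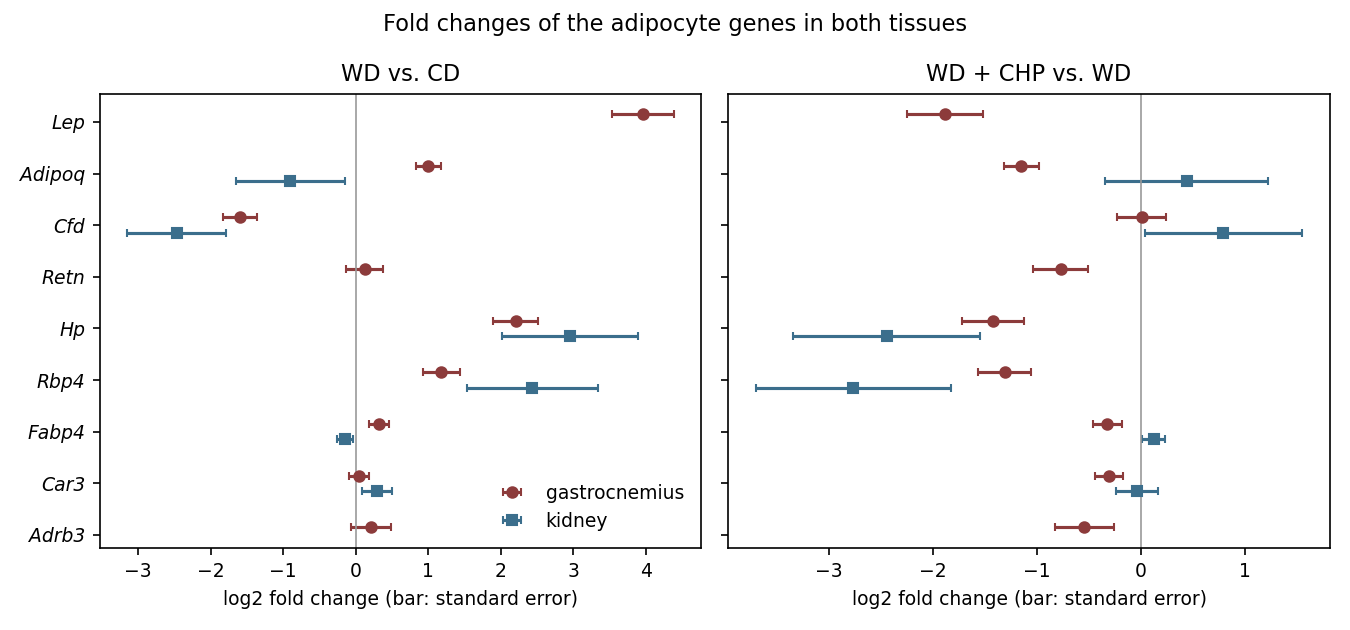
Log2 fold changes of the 9 genes in gastrocnemius (circles) and of the 6 that passed the filter in kidney (squares), with WD vs. CD on the left and WD + CHP vs. WD on the right. Bars are standard errors, which reach 0.94 for Hp and Rbp4 in kidney and stay at 0.43 or less in gastrocnemius.

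The adipocyte RNA of the muscle libraries was followed by 9 other markers of adipocytes. In gastrocnemius 5 of 9 were called higher in WD vs. CD, namely *Plin1*, *Cidec*, *Adig*, *Trarg1* and *Mrap*, and 5 of 9 were called lower in WD + CHP vs. WD, namely *Plin1*, *Cidec*, *Trarg1*, *Mrap* and *Slc36a2*. In WD vs. CD 8 had a log2 fold change above 0 and 1 below (median 0.85, lowest -0.31). All 9 were below 0 in WD + CHP vs. WD (median -0.91). In WD + CHP vs. CD 4 were above 0 and 5 below, from -1.21 to 1.01, so the markers did not all move alike. Their summed level was 23.1 to 31.8 CPM in CD, 44.0 to 61.1 CPM in WD and 20.5 to 34.8 CPM in WD + CHP. None was at 0 in all libraries of a group, and their part in the levels of the members was not tested. *Plin1*, which coats the lipid droplet, rose by 0.93 (SE 0.15, adjusted p = 0.0012 with edgeR) in WD vs. CD. It fell by 0.98 (SE 0.15, adjusted p = 0.0094 with edgeR) in WD + CHP vs. WD. Without the libraries with the most *Alb* that call was lost, as were all calls of WD + CHP vs. WD.

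Set against the mean log2 CPM of these 9 markers in the same library, *Lep*, *Hp* and *Cfd* differed between WD and CD without overlap. The other members overlapped in that comparison. *Lep* stood at -1.08 ± 1.27 in CD (log2 units, SD, n = 5), at 2.55 ± 0.20 in WD and at 1.33 ± 0.53 in WD + CHP. The WD libraries did not overlap with either group, and CD replicate 3 overlapped WD + CHP. *Hp* stood at 1.74 ± 0.42, 3.27 ± 0.28 and 2.51 ± 0.60, with no overlap between CD and WD. *Cfd* stood at 3.998 ± 0.23, 1.70 ± 0.39 and 2.51 ± 0.33, and CD lay apart from both other groups. *Adipoq* moved little against the markers, from 1.78 ± 0.19 in CD to 2.10 ± 0.071 in WD and 1.71 ± 0.15 in WD + CHP, and only the last pair did not overlap. *Rbp4* differed by 0.51 in WD vs. CD and by -0.52 in WD + CHP vs. WD, and its groups overlapped. In WD + CHP vs. CD *Rbp4* differed by -0.014, where *Lep* differed by 2.41. *Retn* differed by -0.58 in that comparison, without overlap. Against *Plin1* alone the WD vs. CD difference was 3.42 for *Lep*, 1.33 for *Hp* and -2.49 for *Cfd*, again without overlap. The WD + CHP vs. WD difference of *Lep* was -1.21 against the 9 markers, without overlap, and -1.02 against *Plin1* alone, with overlap.

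**Figure D4:**
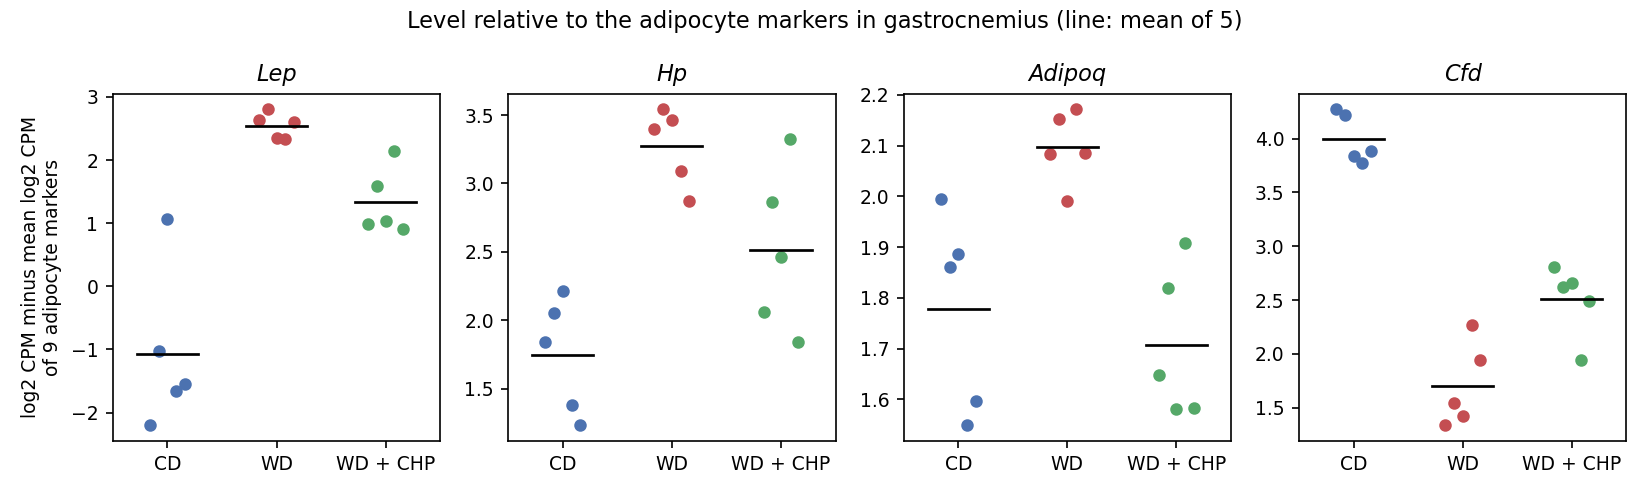
Levels of Lep, Hp, Adipoq and Cfd in gastrocnemius relative to the adipocyte markers, as log2 CPM minus the mean log2 CPM of the 9 markers, with one point per library and a line at the mean of 5. Lep and Hp sit higher and Cfd lower in WD than in CD, and Adipoq spans less than 1 log2 unit in all.

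The genes most like each member were sought among 10812 genes by Pearson's r of log2 CPM over the 15 gastrocnemius libraries. These libraries form 3 groups, so the values mix differences between groups with variation within them. *Lep* was closest to *Mest* (r = 0.956), an imprinted gene that is high in growing fat, to *Npr3* (0.942), a natriuretic peptide receptor, and to *Fads3* (0.937). *Adipoq* was closest to *Plin1* (0.952), *Aoc3* (0.922), an amine oxidase of adipocytes, and *Scd1* (0.921), the stearoyl-CoA desaturase. *Cfd* was closest to *Pdzd7* (0.894), *Gm10605* (0.893) and *Khnyn* (0.887). *Car3* was closest to *Cpeb1os1* (0.936), *Atp1b2* (0.934), a subunit of the sodium pump, and *Smndc1* (0.928). Thus only *Adipoq* had a gene of the adipocyte marker list, *Plin1*, among its 3. *Lep*, *Cfd* and *Car3* had none.

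In kidney 6 of the 9 members passed the filter, and *Lep*, *Retn* and *Adrb3* did not. Of the 6, 1 was called lower in WD vs. CD, *Cfd*, where 9.65% of 17120 genes were called and 5.03% called lower. Nothing is read from this count. For WD + CHP vs. WD edgeR, DESeq2 and limma-voom each called 0 of the 6, where edgeR called 0.105% of genes and had 2 of the 6 at an unadjusted p under 0.05. The groups of all 6 overlapped in both comparisons, while 8.7% and 2.36% of all genes did not overlap. *Fabp4*, at 24.6 to 41.7 CPM, and *Car3*, at 25.8 to 65.3 CPM, were counted in 960 or more reads in every library. Their log2 fold changes were -0.15 (SE 0.11) and 0.29 (SE 0.20) in WD vs. CD and 0.13 (SE 0.11) and -0.039 (SE 0.20) in WD + CHP vs. WD. The remaining members were counted in few reads in most libraries.

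*Lep* had 0 reads in all 5 kidney CD libraries, where a count of 0 allows up to 3 reads, or 0.0785 to 0.0807 CPM on the unscaled totals of the 15 kidney libraries. It had 2, 1, 5, 5 and 4 reads in WD and 0, 1, 3, 2 and 6 reads in WD + CHP. With counts this close to the limit no fold is given. *Retn* had 11, 5, 19, 18 and 4 reads in CD, 1, 0, 0, 7 and 5 in WD, and 1, 6, 5, 0 and 6 in WD + CHP. *Adrb3* had 2 to 18 reads in CD, 0 to 14 in WD and 1 to 19 in WD + CHP.

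*Cfd* in kidney had 78, 24, 111, 137 and 13 reads in CD, 4, 4, 1, 26 and 29 in WD, and 14, 33, 5, 25 and 31 in WD + CHP. CD replicates 2 and 5 fell within the WD range, so the groups overlapped. The log2 fold change was -2.47 (SE 0.68) in WD vs. CD and 0.80 (SE 0.76) in WD + CHP vs. WD. The call was lost when CD replicate 1, 3 or 4 was dropped, or WD replicate 1, 2 or 3, while the estimate stayed between -3.00 and -2.11. *Adipoq* had 25, 3, 25, 45 and 3 reads in CD, 2, 2, 2, 21 and 26 in WD, and 7, 16, 6, 9 and 32 in WD + CHP. Its log2 fold change was -0.90 (SE 0.75) and 0.44 (SE 0.79). With 1 library dropped at a time it ran from -1.53 to -0.37 in WD vs. CD and from -0.11 to 1.08 in WD + CHP vs. WD, so the sign of the latter was not fixed.

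The fat RNA in the kidney libraries differed from library to library. *Plin1* had 44, 3, 28, 66 and 3 reads in CD, 6, 4, 1, 22 and 28 in WD, and 7, 15, 1, 18 and 86 in WD + CHP. In CD and WD taken as 10 libraries, the 5 with the most *Plin1* reads were also the 5 with the most *Adipoq* reads. *Ucp1*, the uncoupling protein of brown fat, had 1 to 105 reads in CD, 1 to 67 in WD and 0 to 194 in WD + CHP. Of 9 adipocyte markers 7 passed in kidney and edgeR called 0 in either comparison (1 at an unadjusted p under 0.05 in WD vs. CD). Their summed level was 3.99 to 9.36 CPM in CD, 4.03 to 10.1 CPM in WD and 4.98 to 9.12 CPM in WD + CHP. *Plin1* made up 0.0778 of 4.33 CPM in CD replicate 2, 0.0271 of 4.03 CPM in WD replicate 3 and 1.70 of 9.36 CPM in CD replicate 4. Similar sums are therefore not read as similar fat RNA. Of 5 brown adipocyte markers 3 passed and 0 were called, or reached an unadjusted p under 0.05, by edgeR. Their part in the *Cfd* result was not tested. Within each library, *Cfd* per *Adipoq* read was 3.04 to 8 in CD, 0.5 to 2 in WD and 0.833 to 2.78 in WD + CHP. The CD libraries did not overlap with either group, as in gastrocnemius, though *Adipoq* had 3 or fewer reads in CD replicates 2 and 5 and WD replicates 1, 2 and 3.

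*Hp* and *Rbp4* in kidney were set by a single library. *Hp* had 690 reads in WD replicate 5 and 6 to 42 reads in the other 14 libraries, and *Rbp4* 804 reads against 14 to 74. The same library held 16419 *Alb* reads. The log2 fold change in WD vs. CD was 2.96 (SE 0.94) for *Hp* and 2.44 (SE 0.90) for *Rbp4*, and neither was called. Without that library these were 0.35 and -0.27, and without CD replicate 1 as well they were 0.80 and 0.24. For WD + CHP vs. WD the values were -2.45 (SE 0.90) for *Hp* and -2.77 (SE 0.94) for *Rbp4*, and without it 0.18 and -0.046. Of 8 hepatocyte markers 8 passed in kidney. In WD vs. CD *Serpina1a* was called higher and *Fga* lower. Their summed level was 83.6 to 240.3 CPM in CD, 92.7 to 664 CPM in WD and 96.7 to 131 CPM in WD + CHP.

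**Figure D5:**
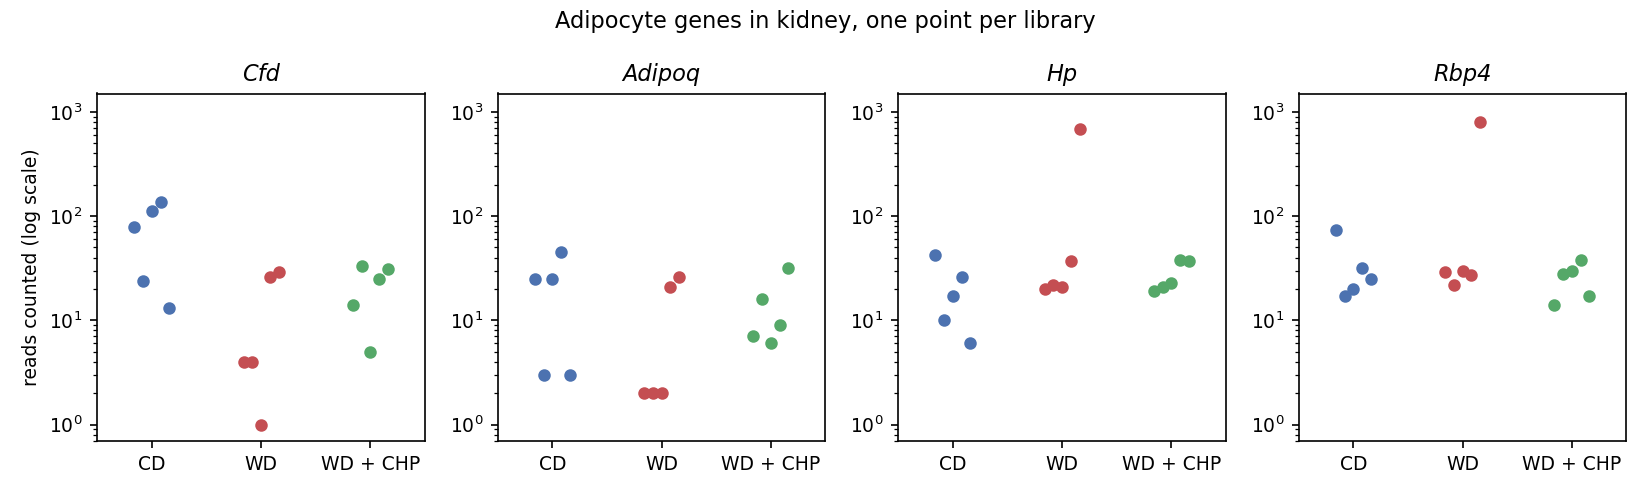
Reads counted per kidney library on a log axis for Cfd, Adipoq, Hp and Rbp4, with one point per library. The single WD point at 690 reads for Hp and 804 for Rbp4 is replicate 5, which also held the most Alb.

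Other adipokines were read from a list of 25 genes. In gastrocnemius 19 passed the filter, and in WD vs. CD 4 were called higher and 1 lower, with a median log2 fold change of 0.071. *Ccn5*, a secreted matricellular protein, rose by 1.41 (SE 0.17, adjusted p = 0.00015 with edgeR). *Metrnl* rose by 0.49 (SE 0.12, adjusted p = 0.015 with edgeR) and *Nrg4* by 0.68 (SE 0.20, adjusted p = 0.044 with edgeR). *Agt*, angiotensinogen, fell by 0.35 (SE 0.085, adjusted p = 0.016 with edgeR). Of the 19, 1 was called in WD + CHP vs. WD, *Retnla*, a relative of resistin made by macrophages and adipocytes, which fell by 0.75 (SE 0.14, adjusted p = 0.030 with edgeR). With each library dropped in turn *Nrg4* passed 1 of 10 times, when CD replicate 1 was dropped. *Retnla* passed 3 times, when WD replicate 3 or 4 was dropped, or WD + CHP replicate 2. *Nampt* (142 CPM in CD and 136 CPM in WD) and *Fbn1*, with the most reads, were not called. Of 8 macrophage markers 8 passed, edgeR called 0 in either comparison, and 2 and 1 had an unadjusted p under 0.05. All 8 had a log2 fold change above 0 in WD vs. CD (median 0.23) and below 0 in WD + CHP vs. WD (median -0.36). Their summed level was 56.6 to 94.4 CPM in CD, 62.3 to 91.4 CPM in WD and 46.3 to 92.3 CPM in WD + CHP, and their part in the *Retnla* result was not tested.

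In kidney 17 of the 24 listed adipokines that the table held passed, and in WD vs. CD 3 were called higher and 2 lower. *Rarres2*, chemerin, rose by 0.73 (SE 0.15, adjusted p = 0.0064 with edgeR). *Sfrp5*, a WNT inhibitor, rose by 1.27 (SE 0.32, adjusted p = 0.020 with edgeR). *C1qtnf12* rose by 0.19 (SE 0.051, adjusted p = 0.029 with edgeR). *Angptl4*, an inhibitor of lipoprotein lipase, fell by 1.298 (SE 0.13, adjusted p = 3.9e-05 with edgeR). *Apln*, apelin, fell by 0.81 (SE 0.16, adjusted p = 0.0059 with edgeR). *Sfrp5* failed when CD replicate 1 or WD replicate 3 was dropped. *C1qtnf12* failed when CD replicate 1, 3 or 5 was dropped, and likewise for WD replicate 1, 3 or 4. For WD + CHP vs. WD edgeR called 0 of 17, and 5 had an unadjusted p under 0.05. *Nampt* and *C1qtnf3*, with the most reads, were not called in either comparison. *Ccn5* in kidney was not analysed here.

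Receptors and partners of the adipokines were read from a list of 15 genes. In gastrocnemius 13 passed, 1 was called in WD vs. CD, and edgeR called 0 in WD + CHP vs. WD (4 at an unadjusted p under 0.05). *Lepr*, the leptin receptor, fell by 0.72 (SE 0.16, adjusted p = 0.0084 with edgeR) in WD vs. CD, from 3.95 to 2.40 CPM. In WD + CHP it was at 1.54 CPM, and the log2 fold change from WD was -0.64 (SE 0.17, adjusted p = 0.12 with edgeR). *Adipor1* and *Adipor2*, the adiponectin receptors and the genes with the most reads, were not called in either comparison, with log2 fold changes of -0.11 (SE 0.053) and 0.046 (SE 0.042) in WD vs. CD. In kidney 14 passed, and 1 was called higher and 2 lower in WD vs. CD. *Ttr*, the plasma partner of the retinol carrier, rose by 0.85 (SE 0.19, adjusted p = 0.0095 with edgeR). *Stra6l*, a receptor of the retinol carrier, fell by 1.5002 (SE 0.22, adjusted p = 0.00058 with edgeR). *Aplnr*, the apelin receptor, fell by 0.71 (SE 0.14, adjusted p = 0.0062 with edgeR). *Adipor1* was at -0.025 (SE 0.033) there, and in WD + CHP vs. WD edgeR had 0 of 14 at the adjusted threshold and 0 at an unadjusted p under 0.05.

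The alternative complement pathway, in which adipsin acts, was read from a list of 11 other genes, of which *C5* was not analysed here. In gastrocnemius 8 passed, and in WD vs. CD 1 was called, *Cd55*, which inactivates the convertase on cells and fell by 0.31 (SE 0.058, adjusted p = 0.0034 with edgeR). *C3*, with the most reads, was at 87.0 CPM in CD, 84.9 CPM in WD and 64.3 CPM in WD + CHP and was not called. In kidney 10 passed, and in WD vs. CD 1 was called, *Cfi*, the protease that inactivates C3b, which fell by 1.05 (SE 0.28, adjusted p = 0.027 with edgeR). That call was lost when CD replicate 5 was dropped, or WD replicate 1, 2, 3 or 4. *Cr1l*, among those with the most reads there, was not called. For WD + CHP vs. WD edgeR called 0 of 8 in gastrocnemius and 0 of 10 in kidney, with 2 and 0 at an unadjusted p under 0.05.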

How the data were processed

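RNA was enriched for polyA and sequenced on the BGISEQ-500 platform. Read cleaning by SOAPnuke, quality control by FastQC and alignment by STAR 2.7.3a were done by the authors, and the submitters' processing notes name GRCm38 (mm10). The counting tool, annotation and strand setting are not given in the sources used here. The values deposited are raw read counts per gene, not normalised, with 1 column per library, matched by its label.

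R 4.3.3 was used with edgeR 4.0.16, limma 3.58.1 and DESeq2 1.42.0, and Python 3.11.15 with matplotlib 3.10.9 for plots. filterByExpr with a minimum count of 10 kept 17120 genes in kidney and 15419 in gastrocnemius. After TMM scaling, 1 quasi-likelihood model per tissue held the 3 groups. WD vs. CD and WD + CHP vs. WD were tested two-sided, and p-values were adjusted by Benjamini-Hochberg across every gene kept, with a threshold of 0.05. The prior count of log2 CPM was 2. The biological coefficient of variation, 9.62% in kidney and 11.6% in gastrocnemius, and the read number set the precision. Simulated counts with known changes were used to test the code. Gene coordinates and exon lengths were taken from GENCODE M21 (GRCm38).

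The members and gene lists were chosen with earlier results of these data known. P-values are given only for genes that are no members, and those of listed and marker genes are subject to the same choice. Named are all 9 members, the genes of the adipokine, receptor and complement lists with an adjusted p under 0.05, the 2 genes with the most reads of each such list per tissue, and the 3 genes most like each of *Lep*, *Adipoq*, *Cfd* and *Car3* at a mean log2 CPM of at least 1. Some listed genes are counted but not reported here by name. Marker genes of cell types were named after their values were seen. Other settings tried were the DESeq2 test, limma-voom, scaling by DESeq2's size factors or by the total count, no filter, at least 10 counts in every library, the replicate number as a block, a fit of only the 2 groups, dropping each library in turn, and *Plin1* alone as the adipocyte reference. Leaving out the libraries with the most *Alb* was added after the data were seen.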

Additional observations from a re-analysis of the deposited data

Results flagged for a closer look

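Each gene and group of 5 libraries was searched for a single library standing apart by Dixon's criterion (a ratio above 0.71), and 4 of 53 groups held one. Chance alone marks about 1 group in 20. In kidney, *Hp* in WD replicate 5 was at 17.8 CPM against 0.528 to 0.976 CPM in the other WD libraries, and *Rbp4* in the same library at 20.8 CPM against 0.583 to 0.812 CPM. *Rbp4* in kidney CD replicate 1 was at 1.94 CPM against 0.441 to 0.826 CPM. These are the kidney libraries with the highest *Alb* level of their groups. In gastrocnemius, *Lep* in CD replicate 3 was at 3.84 CPM against 0.561 to 1.25 CPM in the other CD libraries, and the *Alb* level of that library, 0.390 CPM, was the lowest of its group. The part of hepatocyte RNA in these values was not tested.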

How the results depend on the processing

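In WD vs. CD in gastrocnemius the number of genes called stayed within 1.5 times of 1330 in 18 of 19, the exception being 482 without the libraries with the most *Alb*. The total count in place of TMM gave 1506 higher and 346 lower there, against 720 and 610, and 0 higher and 54 lower in WD + CHP vs. WD, against 10 and 53. In WD + CHP vs. WD in gastrocnemius DESeq2 called 249 genes and the fit with no filter 40, against 63, and leaving out 1 library gave 12 to 92 genes and 1 to 4 members. Without the libraries with the most *Alb* 0 genes and 0 members were called, from fewer libraries (edgeR, 1492 genes at an unadjusted p under 0.05). With the replicate number as a block 2 members, *Adipoq* and *Hp*, were called in place of 4, and 44 genes. The numbers do not pair the mice by any label, and only 2 of 15 same-numbered pairs of libraries correlated above 0.1 in each tissue (r = -0.13 to 0.15 in gastrocnemius and -0.091 to 0.14 in kidney). In kidney, WD vs. CD called 1 member and 1652 genes. No member passed with limma-voom or with at least 10 counts in every library, which drops *Cfd*, and 3 passed with no filter (*Lep*, *Cfd* and *Hp*). Leaving out 1 library gave 0 to 2 members, with *Hp* called without WD replicate 1, 2, 3 or 4, and 1051 genes passed without the libraries with the most *Alb*. In WD + CHP vs. WD in kidney 18 genes were called, against 194 with DESeq2, 37 with no filter, 70 with the block, 0 with only the 2 groups compared (edgeR, 1991 genes at an unadjusted p under 0.05), 0 without the libraries with the most *Alb* (edgeR, 1683 genes) and 0 to 97 with 1 library left out. The cause of these shifts was not tested. Of 563 other values of the members' log2 fold changes, 552 moved by less than the spread between libraries and 0 reversed a called direction. The other 11 were those of *Hp* and *Rbp4* in kidney and of *Lep* without gastrocnemius CD replicate 3. Among the other listed genes, *Nrg4* also failed with no filter, with the block and with only the 2 groups compared, *Cfi* with only the 2 groups compared, and *Agt* with the total count. Without the libraries with the most *Alb*, *Metrnl*, *Agt*, *Retnla* and *C1qtnf12* failed. Counts below about 10 reads per library limit every statement on *Lep*, *Retn* and *Adrb3* in kidney.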

Other observations

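Of 5 brown adipocyte markers, 3 passed the filter in gastrocnemius, and 1, *Cidea*, a lipid droplet protein of brown fat that white fat of mice also makes, was called. It was at 0.270 CPM in CD, 1.18 CPM in WD and 1.08 CPM in WD + CHP, and rose by 2.12 (SE 0.31, adjusted p = 0.00057 with edgeR) in WD vs. CD. In WD + CHP vs. WD its log2 fold change was -0.13 (SE 0.27, adjusted p = 0.89 with edgeR). *Cidec*, its relative in white fat, rose by 1.38 (SE 0.18, adjusted p = 0.00023 with edgeR) and then fell by 1.31 (SE 0.18, adjusted p = 0.0047 with edgeR). The call of that fall was lost without the libraries with the most *Alb*. *Adig*, a small adipocyte protein, rose by 1.13 (SE 0.27, adjusted p = 0.015 with edgeR) and was at -0.12 (SE 0.26, adjusted p = 0.89 with edgeR) in WD + CHP vs. WD. These genes were singled out after their values were seen, and the difference between them was not tested. *Ucp1* had at most 5 reads in any gastrocnemius library.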
